A study of Mus musculus with 17 samples.

Results

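The genes described here are 10 members of the TGF-beta and BMP system that act outside the cell: the TGF-beta ligands Tgfb1, Tgfb2 and Tgfb3, the BMP ligands Bmp2, Bmp4 and Bmp6, the latent TGF-beta binding proteins Ltbp1, Ltbp3 and Ltbp4, and Bmper, a secreted BMP-binding protein. They were chosen by name from the 49585 gene identifiers in each count table, and all 10 were matched by symbol. The samples are endothelial cells that were sorted from mouse bone marrow, gated as CD31+, CD45- and Ter119- (the extraction protocol adds Sca1+, which the series' design text leaves out), and sequenced with SmartSeq2, a full-length RNA method without molecular identifiers. Endothelium with the Eng gene deleted (KO) was compared with wild type (WT), and the question for these genes is whether loss of the co-receptor comes with a change in the ligands and in the proteins that store them.

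In the KO line, exons 5 and 6 of Eng lie between loxP sites and are removed by the tamoxifen-inducible recombinase CreERT2 under the Cdh5 promoter, which is active in endothelium of all organs. All animals, WT included, received tamoxifen, given to the KO at 8 weeks of age, and cells were taken 2 or 4 weeks later. The labels do not say whether WT animals carried the recombinase or the floxed allele. There were 4 WT libraries (2 female, 2 male) and 4 KO libraries (2 female, 2 male) at 2 weeks, and 5 WT libraries (2 female, 3 male) and 4 KO libraries (1 female, 3 male) at 4 weeks. Libraries are named below by sex and number as in their titles (f1, m2), with 1 unnumbered female WT library (f) at 4 weeks. Nothing in the labels says that each library is a separate animal, so p-values measure the spread between these libraries.

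Ligands of this family are made as precursors, and the mature dimers bind pairs of type I and type II receptor kinases that phosphorylate SMAD proteins. The TGF-betas leave the cell held in an inactive complex by their own propeptide, and the latent TGF-beta binding proteins tie that complex to the extracellular matrix. Endoglin, the product of Eng, is an accessory receptor of endothelial cells that binds BMP9 and BMP10 with high affinity and associates with TGF-beta receptor complexes. BMP2, BMP4 and BMP6 act on endothelium and, in bone, on osteoblast precursors, and endothelial BMP6 is known for controlling iron balance in the liver.

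Total counts were 26705337 to 40882715 per library at 2 weeks and 20477400 to 33726630 at 4 weeks. The 2-week libraries held 10886 to 13583 genes with a count and 22.2 to 29.5% mitochondrial counts, against 15996 to 21235 genes and 4.66 to 8.99% at 4 weeks, so time cannot be told apart from this difference between libraries. All 10 endothelial markers exceeded the floor of 3 counts in every library. Their sum in CPM (counts scaled to a fixed total per library) was 4903.7 to 6360.9 in WT and 3868.9 to 4682.9 in the KO at 2 weeks, without overlap, and 10570.9 to 12837.8 and 9426.3 to 12396.4 at 4 weeks. The 9 neutrophil markers summed to 106.9 to 4103.7 CPM in the KO at 2 weeks and to 22.65 to 110 in WT. The 8 erythroid markers summed to 277.7 to 1240.3 CPM in the KO and 61.45 to 179.6 in WT at 2 weeks, without overlap, and to 611 to 2893.2 and 164.6 to 1271.6 at 4 weeks. The part of these 3 lists in the values below was not tested. Eng was 26.1% of the WT mean in the KO at 2 weeks (274.3 ± 51.8 against 1052.7 ± 252 CPM, SD, n = 4 each) and 30.1% at 4 weeks (779.1 ± 640, n = 4, against 2587.1 ± 122, n = 5), and the KO library m2 at 4 weeks kept 1647.3 CPM.

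The level of the members per length differed widely. On a scale of counts per exon length with the same sum in each library (TPM), Ltbp4 stood at 385.4 ± 145 (SD, n = 5) in WT at 4 weeks. Next in order came Bmp4 (31.83), Bmp6 (23.23), Tgfb2 (14.29), Tgfb3 (11.6), Bmp2 (7.421), Ltbp3 (5.198), Tgfb1 (3.931), Ltbp1 (3.656) and Bmper (0.225). The library ranges of Ltbp4 and Bmp4 did not overlap, nor did those of Ltbp1 and Bmper, and all other neighbours in this order overlapped. Ltbp4 made up 63.3 to 85% of the summed TPM of the 10 genes in WT at 4 weeks and 60.3 to 70.2% in the KO, and at 2 weeks 61.9 to 73.9% in WT and 68.5 to 88.6% in the KO. The 2 ligands to which Endoglin binds most tightly, Gdf2 (encoding BMP9) and Bmp10, had a count of 0 in all 17 libraries, which allows up to 3 counts, or 0.0734 to 0.147 CPM, in each.

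**Figure D1:**
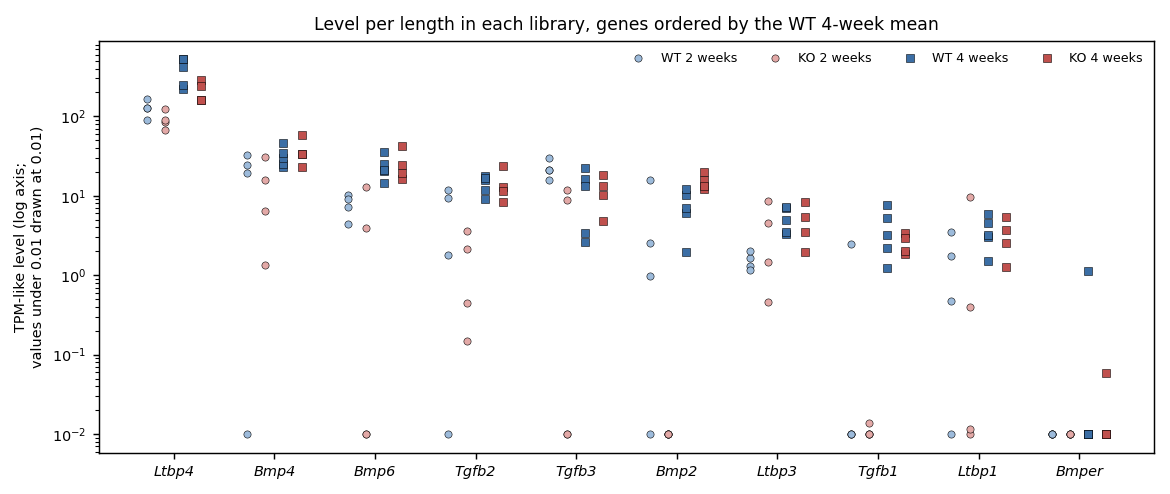
Level per exon length (TPM, log axis) of each gene in each library, ordered by the mean of WT at 4 weeks, with values under 0.01 drawn at 0.01. Ltbp4 lies above all other genes in every group, and most of the points at the bottom edge belong to 2-week libraries.

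Neither time point gave a call on any member in the comparison of KO with WT. At 2 weeks edgeR's quasi-likelihood test with Benjamini-Hochberg adjustment tested 7 members, since Tgfb1, Bmp2 and Bmper failed the filter on low counts, and called 0 of them, with a background of 0% of 10477 genes. At 4 weeks it tested 9 members (all but Bmper) and called 0, again with a background of 0% of 15209 genes. At an unadjusted p under 0.05 there were 0 of 7 members at 2 weeks, against 2.63% of all genes, and 2 of 9 at 4 weeks (Bmp2 and Ltbp4), against 2.77%. DESeq2 called 0 members at either time, against 1.42% of genes at 2 weeks and 0.112% at 4 weeks, and voom with quality weights called 0, against 0.115% and 0%. The median log2 fold change over the members tested was -0.88 at 2 weeks and 0.01 at 4 weeks, against -0.06 and 0.01 over all genes. These are bulk samples, in which fewer cells of a type and less RNA per cell cannot be told apart.

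**Figure D2:**
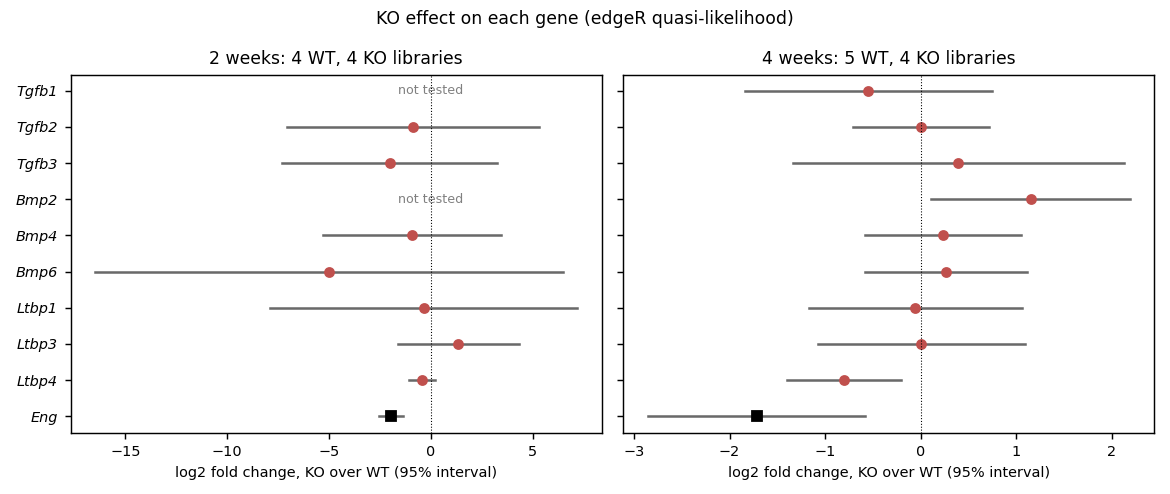
Log2 fold change of KO over WT with its 95% interval from the edgeR fit, for each member tested and for Eng, at 2 weeks (left) and 4 weeks (right); the horizontal scales differ. At 2 weeks Ltbp4 (-0.42) has the narrowest interval of the members, and at 4 weeks the intervals of Bmp2 (1.15) and Ltbp4 (-0.80) leave out 0 before adjustment.

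Ltbp4, a matrix protein that binds latent TGF-beta1 and takes part in elastic fibre assembly, lies on mouse chromosome 7 (GRCm38, chr7:27305136-27337692, minus strand). Its counts sum over transcripts from separate starts, which gene-level counts cannot tell apart, so the windows from 250 bases before to 50 after the upstream start and one of the downstream starts are shown (RefSeq, GRCm38.p6; 8 of the 10 members had such windows). Capitals mark GGCGCC, the only one of the searched motifs in these windows. The search covered both strands for GGCGCC, a GC-rich element bound by BMP-activated SMADs and present in 11.9% of 32851 mouse windows of this length, CAGAC, the core of the SMAD3 and SMAD4 element, in 49.6%, and TATAAA, in 13.6%. A match is only a match of letters.
Ltbp4 upstream start, chr7:27337563-27337862: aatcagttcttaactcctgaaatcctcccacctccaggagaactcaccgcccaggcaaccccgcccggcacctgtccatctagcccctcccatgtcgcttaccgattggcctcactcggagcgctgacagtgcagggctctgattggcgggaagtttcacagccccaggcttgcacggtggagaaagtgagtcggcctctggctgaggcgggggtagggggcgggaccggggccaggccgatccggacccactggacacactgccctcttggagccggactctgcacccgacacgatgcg
Ltbp4 downstream start, chr7:27333599-27333898: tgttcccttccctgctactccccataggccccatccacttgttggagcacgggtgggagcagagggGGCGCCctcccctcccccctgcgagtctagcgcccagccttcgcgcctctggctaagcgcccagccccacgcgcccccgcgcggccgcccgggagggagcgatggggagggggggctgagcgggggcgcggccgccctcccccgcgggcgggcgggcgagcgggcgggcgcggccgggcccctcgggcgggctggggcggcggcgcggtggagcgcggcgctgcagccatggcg
GC content was 64.3% in the upstream and 80.3% in the downstream window, against a median of 52.7% over all windows.

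At 4 weeks Ltbp4 stood at 1266.8, 608.7, 1073.1, 1318.5 and 670.6 CPM in the WT libraries f, f3, m1, m2 and m3. In the KO libraries f2, m1, m2 and m3 it stood at 464.6, 754.5, 624.6 and 445.2 CPM. The KO libraries f2 and m3 were below every WT library, while m1 lay above WT f3 and m3 and m2 lay above WT f3. The KO mean was 57.9% of the WT mean, with a log2 fold change of -0.80 (SE 0.261), 79th of all genes by p (unadjusted p = 0.0138, adjusted p = 1, edgeR). The exact permutation test on log2 CPM gave p = 0.0714 (two-sided, 5 against 4 libraries).

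The 4-week libraries were split into 2 sets by the sign of the first principal component, computed after the mean of each genotype was removed. This component held 49.2% of the remaining variance over 4711 genes above a cut on mean level. Set A held WT f, m1 and m2 and KO m1 and m2, and set B held WT f3 and m3 and KO f2 and m3. Because the genotype means were removed first, each set was bound to contain both genotypes. Ltbp4 was lower in the KO without overlap in each: 624.6 to 754.5 against 1073.1 to 1318.5 CPM in set A, and 445.2 to 464.6 against 608.7 to 670.6 in set B. The KO mean was 56.5% of WT in set A and 71.1% in set B. With so few libraries in a set such gaps were common: the genotypes did not overlap in 18.9% of 11149 genes in set A and in 38.6% in set B (genes with at least 10 counts in every 4-week library), and in 4 and 7 of the 9 members of that level. In both sets at once 2.08% of these genes were lower in the KO without overlap, among the members Ltbp4, and 1.97% were higher, among the members Bmp2. With a term for the sets, chosen after seeing the data, the log2 fold change was -0.66 (SE 0.111, unadjusted p = 0.000442), the 3rd smallest p of all genes, and the adjusted p remained 1. Ltbp4 was among the genes that define the sets, so the sets themselves are not compared by a test. For the same reason the set term takes up part of the spread of Ltbp4 by construction. Nothing is therefore read from the smaller SE, the p or the rank of that fit.

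The 5 smooth muscle markers did not follow one pattern over the sets. Rgs5, a marker of pericytes, stood at 1028.0 to 2336.4 CPM in the WT and 1204.5 to 1614.5 CPM in the KO libraries of set A, and at 325.8 to 458.6 and 284.4 to 310.1 CPM in those of set B. Myh11 was also lower in set B, with WT and KO means of 51.92 and 49.14 CPM in set A and 16.47 and 30 in set B. The smooth muscle actin gene Acta2 had means of 203.5 and 199.3 CPM in set A and 212 and 257.6 in set B, Tagln had 184.2 and 171.2 against 203.5 and 225, and Cnn1 was at most 8.357 CPM. The sum of the 5 smooth muscle markers ran from 716.3 to 2910.3 CPM in WT and from 777 to 2090.2 in the KO, with at most 1 of the 5 at the floor, and Rgs5 is its largest term. The part of these transcripts in the Ltbp4 values was not tested.

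**Figure D3:**
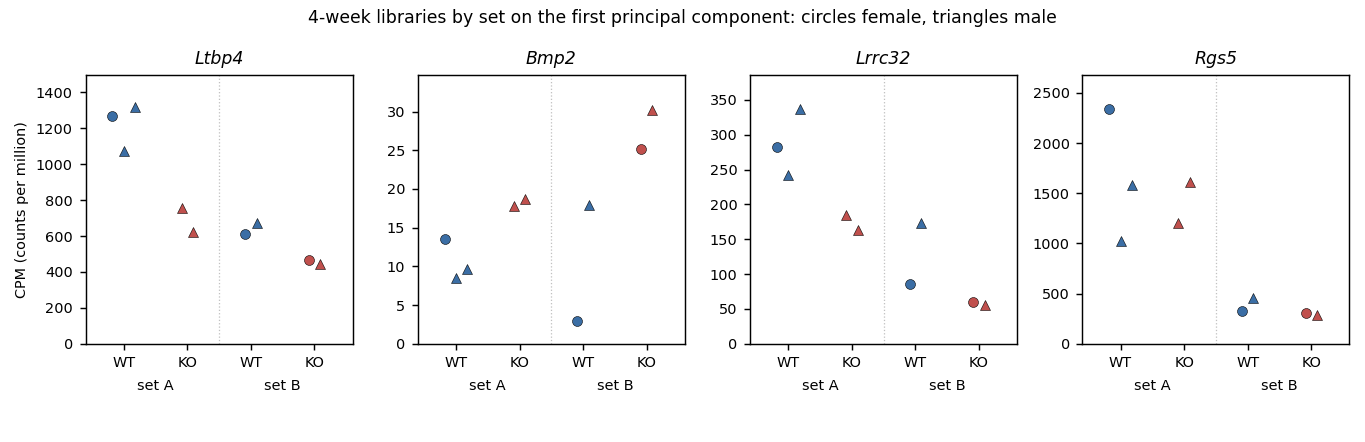
CPM of Ltbp4, Bmp2, Lrrc32 and Rgs5 in the 4-week libraries, split by genotype and by the 2 sets on the first principal component (circles female, triangles male). Ltbp4 and Lrrc32 lie lower in the KO within both sets, and Bmp2 lies higher, while Rgs5 differs mainly between the sets. Of the 11149 genes with at least 10 counts in every 4-week library, 2.08% lie lower in both sets and 1.97% higher.

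At 2 weeks Ltbp4 was 594.2, 423.4, 303.5 and 447.4 CPM in the WT libraries f1, f4, m2 and m3, and 441.1, 236.5, 302.5 and 334.7 CPM in the KO libraries of the same names. The groups overlapped, and the KO mean was 74.3% of WT (log2 fold change -0.42, SE 0.263, adjusted p = 1). The sum of the endothelial markers given above was lower in the KO at this time as well, and its part in the Ltbp4 values was not tested. Without the KO libraries m2 and m3, which carried the most neutrophil transcripts, the log2 fold change was -0.63 (SE 0.419). Over both times Ltbp4 averaged -0.59 (SE 0.191, unadjusted p = 0.00786, adjusted p = 0.279, edgeR), and DESeq2 called this effect (adjusted p = 0.039), as it did for 7.43% of all genes. Its KO effect at 4 weeks less that at 2 weeks was -0.36 (SE 0.378, adjusted p = 1).

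Ltbp1 and Ltbp3, which bind the latent forms of the TGF-betas, stood far below Ltbp4 per length (3.656 and 5.198 against 385.4 TPM in WT at 4 weeks). Ltbp1 (chr17:75005568-75392512) ranged from 6.391 to 23.57 CPM in WT and from 5.8 to 23.47 CPM in the KO at 4 weeks. Its log2 fold change at 4 weeks was -0.06 (SE 0.489), with a 95% interval from -1.17 to 1.05. Ltbp3 (chr19:5740904-5758532) ranged from 12.53 to 27.11 CPM in WT and from 7.134 to 32.26 CPM in the KO, and its 95% interval at 4 weeks ran from -1.08 to 1.09. At 2 weeks Ltbp1 was 55.98 CPM in the KO library f1 against 0 to 2.419 in the other KO libraries, and Ltbp3 was 22.69, 7.248, 2.289 and 44.67 CPM in the KO libraries f1, f4, m2 and m3 against 5.554 to 9.993 CPM in WT. For both genes the WT range lay within the KO range.

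Among the BMP ligands, Bmp2 (chr2:133552159-133562885), an inducer of bone formation, was the 1 with an unadjusted p under 0.05 at 4 weeks. At 4 weeks it stood at 13.52, 3.004, 8.535, 9.667 and 17.88 CPM in the WT libraries f, f3, m1, m2 and m3, and at 25.15, 17.83, 18.68 and 30.25 CPM in the KO libraries f2, m1, m2 and m3. The KO libraries were all at the top of the range, apart from m1, which lay just under WT m3. The KO mean was 218% of WT, with a log2 fold change of 1.15 (SE 0.458, unadjusted p = 0.0339, adjusted p = 1, edgeR) and an exact permutation p of 0.0317 (two-sided, 5 against 4 libraries). Without any 1 library other than WT m3 the exact p was 0.0536 to 0.0893. Of 10 exact tests on members at 4 weeks, this was the only p at or under 0.05, and over all 19 members' tests at both times there were 2. Within set A Bmp2 was 8.535 to 13.52 CPM in WT and 17.83 to 18.68 in the KO, and within set B 3.004 to 17.88 and 25.15 to 30.25. With the term for the sets the log2 fold change was 1.07 (SE 0.483, unadjusted p = 0.0606).

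At 2 weeks Bmp2 had a count of 0 in all 4 KO libraries. The WT libraries f1, f4, m2 and m3 had 0, 1.786, 28.88 and 4.904 CPM, so WT f1 was also at 0, and m2 alone carried most of the WT mean. Set against 3 counts per library, the WT mean of 8.892 CPM was at least 92.6-fold higher than the KO, but the exact permutation p was 0.143 (two-sided, 4 against 4), and the gene did not pass the filter of the edgeR fit at 2 weeks. The exact p stayed at 0.143 without any 1 library other than WT f1. Without f1, the WT library at 0, the groups did not overlap (exact p = 0.0286), as held for 6.27% of 11616 genes with at least 10 counts in at least 3 of the 2-week libraries. The joint edgeR fit of 17 libraries gave a 2-week log2 fold change of -10.78 (SE 2.2, adjusted p = 0.0665), which is no bound, since the KO is at 0.

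In the KO Bmp2 was at 0 CPM in every library at 2 weeks and between 17.83 and 30.25 CPM at 4 weeks. The 4-week mean of 22.98 CPM was 239-fold above the mean 2-week floor of 3 counts (0.0961 CPM). The joint edgeR fit of all 17 libraries gave an adjusted p of 0.00829 for the difference between the times, the 1 call on a member in these edgeR fits. Bmp2 failed the filter at 2 weeks and entered the joint fit with its 4-week counts, and its KO group at 2 weeks is at 0, so no rise is read from this call. This was 1 call among 9 members tested, against a background of 7.56% of 13515 genes, and the time points also differ in gene detection, as given above. In WT the 4 against 2 week difference of Bmp2 was 0.33 (SE 1.28, adjusted p = 0.973), and edgeR called 0 of 9 members, against 8.04% of genes, with 1 (Ltbp4) at an unadjusted p under 0.05, against 17.7% of genes. DESeq2 called 1 of 9 members in WT over time (Ltbp4), against 15.5% of genes, and voom 1 (Tgfb1), against 10.7%. The difference between the KO effects at the 2 times was not called for Bmp2 (adjusted p = 0.158; 0 of 9 members against 0.104% of genes), nor was its mean KO effect (adjusted p = 0.217; 0 of 9 against 0.0962%). Both became calls under DESeq2, which called 6.87% and 7.43% of all genes in these comparisons. In the edgeR fits both were calls without the WT library f1 at 2 weeks (adjusted p = 0.0171 and 0.0417), where 33 and 41 of 13407 genes were called. For Bmp2, f1 is the WT library at 0. The KO is at 0 at 2 weeks and Bmp2 entered the joint fit with its 4-week counts, so no KO effect is read from these calls.

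Bmp4 and Bmp6 were the BMP ligands with the highest levels per length and did not differ between genotypes beyond their spread at 4 weeks. Bmp4 (chr14:46383520-46390669) ranged from 19.3 to 44.98 CPM in WT and from 23.15 to 53.04 CPM in the KO, with a log2 fold change of 0.23 (SE 0.358). Bmp6 (chr13:38345107-38500302) ranged from 22.43 to 58.92 CPM in WT and from 28.42 to 66.74 CPM in the KO, with a log2 fold change of 0.27 (SE 0.372). In set A both were higher in the KO without overlap (185% of the WT mean for Bmp4, 175% for Bmp6), and in set B both were lower without overlap (71.3% and 64.8%). The genotypes did not overlap in 18.9% of 11149 genes in set A and in 38.6% in set B, so no reversal is read from this. The 95% intervals at 4 weeks ran from -0.58 to 1.05 for Bmp4 and from -0.58 to 1.11 for Bmp6. At 2 weeks WT and KO overlapped for both genes, and Bmp6 was at 0 in the KO libraries f1 and f4, at 8.349 CPM in m2 and at 29.09 CPM in m3. Its log2 fold change at 2 weeks was -5.01 (SE 4.85, adjusted p = 1, edgeR), -1.15 (SE 1.59) in the joint fit, and -12.01 (SE 2.99, adjusted p = 0.839) without the KO libraries m2 and m3, which leaves the KO at 0, so that this value is no bound. The exact permutation p of Bmp6 at 2 weeks was 0.229, and 0.143 to 0.314 without any 1 library other than KO m3, the highest KO library. Without m3 the groups did not overlap (exact p = 0.0286), as held for 5.75% of 11616 genes with at least 10 counts in at least 3 of the 2-week libraries. Bmp6 shares 224 exonic bases with Txndc5 on the opposite strand, and the strand setting of the counting is not given in the sources used here.

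Of the TGF-beta ligands, Tgfb3 (chr12:86056745-86079041) showed separated groups at 2 weeks. It stood at 38.69, 36.93, 27.5 and 55.11 CPM in the WT libraries f1, f4, m2 and m3, and at 21.94, 0, 0 and 17.21 CPM in the KO libraries of the same names. No KO library reached the lowest WT library, and 3.36% of the 10477 genes tested at 2 weeks had groups that did not overlap. The exact permutation p was 0.0286, the smallest that 4 against 4 libraries can give (0.171 without any 1 of the WT libraries), and the log2 fold change in the edgeR fit was -2.03 (SE 2.22, adjusted p = 1). It ran from -3.77 without the KO library f1 to -1.58 without KO m2, and was -6.92 (SE 2.2, adjusted p = 0.819) with voom and -6.07 (SE 4.38, adjusted p = 1) with the replicate block. Gm37804, whose exons overlap 163 bases of Tgfb3 on the opposite strand, was 3.204 to 8.668 CPM in WT and 0 in all 4 KO libraries at 2 weeks, and without strand the reads of the pair cannot be told apart. At 4 weeks Tgfb3 ranged from 3.563 to 32.56 CPM in WT and from 7.276 to 24.73 CPM in the KO, and the means were 16 and 16.19 CPM. The KO effect at 4 weeks less that at 2 weeks was 2.21 (SE 2.25, adjusted p = 1).

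Tgfb2 (chr1:186622792-186705989), known for roles in heart valve and vessel development, averaged 33.39 ± 8.78 CPM (SD, n = 5) in WT and 33.82 ± 14.9 CPM (n = 4) in the KO at 4 weeks. The 95% interval of its log2 fold change ran from -0.71 to 0.72. At 2 weeks it stood at 0, 5.406, 27.83 and 37.14 CPM in the WT libraries f1, f4, m2 and m3, and at 0.4713 to 11.31 CPM in the KO. Only the male WT libraries were above all KO libraries.

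Tgfb1 (chr7:25687002-25705077), the best studied ligand of the family, was detected above the floor at 2 weeks in 1 library, WT f4, at 6.433 CPM (263 counts). The KO libraries had 0 or 1 count. At 4 weeks all libraries held it, with 2.506 to 15.29 CPM in WT and 4.151 to 6.902 CPM in the KO. The log2 fold change at 4 weeks was -0.55 (SE 0.567), and its difference from 2 to 4 weeks in the KO had an adjusted p of 0.0588 (edgeR), from which nothing is read, since the gene failed the filter at 2 weeks and entered the joint fit with its 4-week counts.

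Bmper (chr9:23223076-23485200), which binds BMPs and modulates their signalling in endothelium, had 69 counts (2.046 CPM) in the WT library f at 4 weeks. It had 3 counts in the KO library m2 at 4 weeks and a count of 0 in the other 15 libraries. It did not pass the filter on low counts of the edgeR fits given above.

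**Figure D4:**
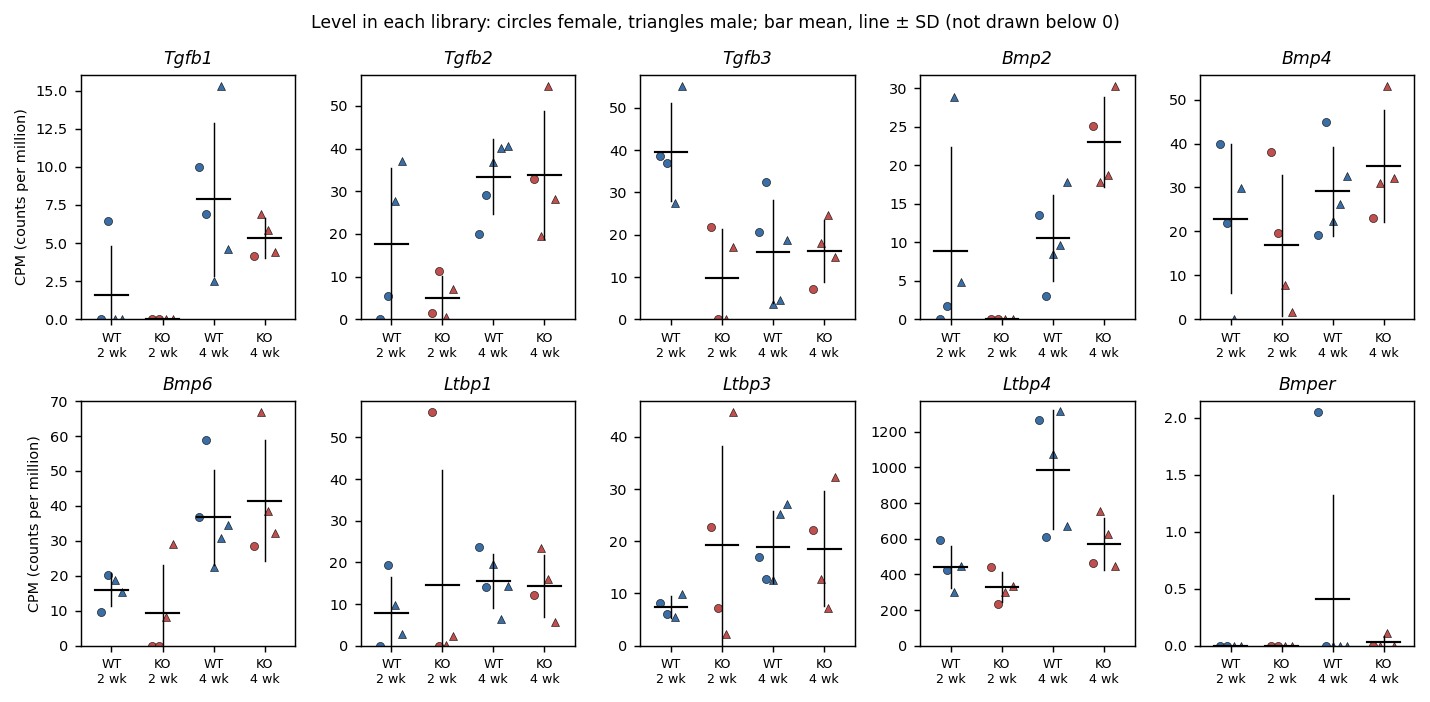
CPM of the 10 members in each library by genotype and time (circles female, triangles male; bar, mean; line, SD). Tgfb3 at 2 weeks shows separated genotypes, Bmp2 is at 0 in the 4 KO libraries at 2 weeks and at 17.83 CPM or more at 4 weeks, and Ltbp4 at 4 weeks is lower in the KO libraries f2 (464.6) and m3 (445.2) than in any WT library.

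The number of members above the floor was 5 to 9 of 10 in WT and 4 to 7 of 10 in the KO at 2 weeks, and 9 or 10 in each library at 4 weeks. Over the 8 members whose mean at 4 weeks lay between 5 and 50 CPM, 7 of 32 values were at or under the floor in WT at 2 weeks (21.9%) and 14 of 32 in the KO (43.8%). Over all 6870 genes of that level the shares were 27.6% in WT and 31.5% in the KO. At 4 weeks none of the 72 values of these members was at or under the floor, against 0.804% for all such genes.

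Genes whose 4-week pattern was most like that of a member were found by Pearson's r of the deviations from the group means over 9 libraries, among 11148 genes, with no test. Ltbp4 was closest to Rbsn (r = 0.981), Gm26582 (0.98) and Pxdn (0.977), a matrix peroxidase. Bmp2 was closest to A230072C01Rik (r = 0.971), Relb (0.943), a subunit of the NF-kappaB family, and Thnsl2 (0.924). Tgfb3 was closest to its overlapping partner Gm37804 (r = 0.977). Among the members themselves the highest r was 0.735, between Tgfb3 and Bmp6, and the lowest was -0.668, between Ltbp1 and Ltbp3.

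Related genes of the pathway gave few calls. Of 28 other ligands, 9 were tested at 4 weeks and 0 called in KO against WT, and Gdf15 and Bmp5 had the smallest p-values. Gdf15, a stress-induced ligand of the family, was 3.884 to 15.56 CPM in WT and 19.87 to 55.8 CPM in the KO, without overlap (log2 fold change 2.24, SE 0.521, adjusted p = 1); 1.19% of the 15209 genes tested had groups that did not overlap at 4 weeks. Bmp5 was at most 5.154 CPM in any 4-week library.

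Of 30 genes for latency, activation and matrix, 25 were tested at 4 weeks and 0 called. Lrrc32, which encodes GARP, a membrane anchor of latent TGF-beta, was 85.84 to 337.2 CPM in WT and 55.8 to 185.1 CPM in the KO (edgeR log2 difference -1.08, SE 0.44, adjusted p = 1). It was lower in the KO without overlap in each set, as were 2.08% of the 11149 genes with at least 10 counts in every 4-week library. Plat, the tissue plasminogen activator, differed by 0.50 on the log2 scale (SE 0.204, adjusted p = 1). Thbs1, which can activate latent TGF-beta, was 0 to 0.2916 CPM in WT and 1.212 to 18.84 CPM in the KO at 2 weeks. The groups did not overlap, as held for 3.36% of genes (edgeR log2 difference 6.04, unadjusted p = 0.0382, adjusted p = 1). Thbs1 had at most 11 counts in any WT library at 2 weeks and passed the filter through the KO libraries. Nothing is therefore read from this difference or its p. At 4 weeks its means were 54.17 CPM in WT and 54.77 CPM in the KO.

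Of 26 extracellular BMP modulators in the tables, 15 were tested at 4 weeks and 0 called. Smoc2, a matrix protein that modulates BMP signalling, was 0 to 0.2669 CPM in WT and 1.023 to 5.192 CPM in the KO (adjusted p = 1). The groups did not overlap, as held for 1.19% of 15209 genes. Smoc2 had at most 9 counts in any WT library at 4 weeks and passed the filter through the KO libraries. Of 14 receptors, 10 were tested over both times and 1 was called in the mean KO effect, Eng itself (log2 fold change -1.83, SE 0.31, adjusted p = 0.0378). Of 22 SMADs and targets in the tables, 21 were tested at 4 weeks and 0 called.

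Between 2 and 4 weeks edgeR called 10 of the 71 tested genes of these lists higher in WT, where it called 5.74% of all genes higher, and 5 of 71 in the KO, against 5.7%. Of the calls in WT, Gdf11, Gdf15, Thbs1, Mmp2 and Mmp14 had at most 11 counts in any WT library at 2 weeks and passed the filter through other libraries, so no rise is read from them; the same holds for Gdf11 in the KO, with at most 1 count there. The others had at least 10 counts in every library, namely Id1, Id2, Id3, Mmrn2 and Itgb1 in WT and Id1, Id2, Id3 and Mmrn2 in the KO. The inhibitors of differentiation Id1, Id2 and Id3 are SMAD targets. Id1 differed by 1.02 (SE 0.178, adjusted p = 0.00283) in WT and by 1.09 (SE 0.187, adjusted p = 0.003) in the KO. No list gene was called lower. Ltbp4 differed by 0.84 in WT (SE 0.266, adjusted p = 0.0717) and by 0.48 in the KO (SE 0.28, adjusted p = 0.445), against medians over all genes of 0.27 and 0.34.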

How the data were processed

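The authors deposited raw counts per gene, 1 table per library, as whole numbers without normalization. Cutadapt, STAR, HTSeq 0.6.1p1 and GRCm38 (mm10) are named in the submitters' processing notes; the strand setting is not given in the sources used here. Symbols and positions came from GENCODE M21, which matched 49326 of 49585 identifiers. CPM is the count scaled to a fixed library total; TPM divides by exon length first. The edgeR 4.0.16 fits (R 4.3.3; filterByExpr, TMM, robust quasi-likelihood, sex term) were made per time point and on all 17 libraries, with Benjamini-Hochberg adjustment over all genes at 0.05, and the approach was tested on simulated data. DESeq2 1.42.0 and limma 3.58.1 voom were alternatives. Exact permutation tests used log2 CPM with a prior count of 2. Floors of 3 counts cover counting error only. Members, gene lists and tests were chosen with earlier results of these data known. The rule named all members and Eng, 3 genes most like each member, and list genes past the threshold or with the 2 smallest p-values; Rgs5, Gdf2, Bmp10 and Gm37804 were chosen after their values were seen. Same-numbered libraries had an r of deviations of -0.009 to 0.068 at 2 weeks, and the 3 male pairs at 4 weeks had 0.138 to 0.536. WT and KO libraries of different names ran from -0.545 to 0.573 at 4 weeks, so these r do not show that a number marks a pair. Alternative fits with a replicate block treated same-numbered libraries as paired.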

Additional observations from a re-analysis of the deposited data

Results flagged for a closer look

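Of 35 combinations of a member and a group of 4 or 5 libraries, 4 held a library whose gap to the nearest other library took up more of the range than Dixon's 95% value allows, where chance gives about 1 in 20. Tgfb1 was 6.433 CPM in the WT library f4 at 2 weeks and at 0 in the other 3. Bmp2 was 28.88 CPM in the WT library m2 at 2 weeks, with the next at 4.904. Ltbp1 was 55.98 CPM in the KO library f1 at 2 weeks, with the next at 2.419. Bmper was 2.046 CPM in the WT library f at 4 weeks and at 0 in the other 4. For Tgfb1 and Bmper the gap is the whole range by construction, because all other libraries of the group are at 0, and the rate of 1 in 20 does not apply to them.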

How the results depend on the processing

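The calls on members depended on the tool and on single libraries, and the cause was not tested. With the share of all genes called in brackets, DESeq2 called 2 members in the mean KO effect (Bmp2, Ltbp4; 7.43%), 1 in the difference of the KO effects (Bmp2; 6.87%), 1 in 4 against 2 weeks in WT (Ltbp4; 15.5%) and 2 in the KO (Tgfb1, Bmp2; 15.9%), and voom called 1 (Tgfb1; 10.7%) and 2 (Tgfb1, Bmp2; 10.1%) in the last pair. The demand for at least 10 counts in every library gave 1 call in WT (Ltbp4; 12.8%) and 0 in the KO (12.6%), where Bmp2 was not tested. Leaving out 1 library gave 0 to 1 calls on members in the mean KO effect, the difference of KO effects and WT over time, and 1 to 2 in the KO over time. Over all genes these fits called 5 to 62, 7 to 52, 520 to 1412 and 604 to 1300 of 12887 to 14025 tested. From 1 to 3 exact tests were at or under 0.05. Tgfb1 was the added call in the KO over time without any of the WT 2-week libraries f1, f4, m2 or m3, and the call in WT without f4. At 2 weeks Tgfb1 had 0 or 1 count outside WT f4, and Bmp2 was at 0 in the KO. No effect or rise is therefore read from the calls on these 2 genes. The exact p of Tgfb3 at 2 weeks was 0.171 without any 1 WT library, and that of Bmp2 at 4 weeks reached 0.0536 to 0.0893 without any 1 library other than WT m3.

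Ltbp4 kept its sign in all alternatives (at 4 weeks -0.66 to -0.96 without 1 library), as did Bmp2 at 4 weeks (0.91 to 1.45). With the replicate block, Ltbp4 was -0.42 (SE 0.171) at 2 weeks and -0.72 (SE 0.154, adjusted p = 1) in the males at 4 weeks, and no call on a member changed. Signs turned for uncalled values. At 2 weeks this held for Bmp4 with voom (0.16) and the replicate block (0.005), for Ltbp1 without a sex term (0.832) and in the fit of all 17 libraries (0.301), and without KO m2 and m3, chosen after seeing the data, for Tgfb2 (1.257) and Ltbp1 (1.5). At 4 weeks voom gave -0.0712 for Tgfb2, -0.4 for Tgfb3, -0.0379 for Bmp4 and -0.0848 for Bmp6, and the fit without a sex term gave -0.0248 for Tgfb3. The joint fit gave -0.0161 for Tgfb2, -0.172 for Bmp6 and 0.159 for Ltbp1, and the male replicate block -0.329 for Tgfb2, 0.106 for Ltbp1 and -0.485 for Ltbp3. DESeq2 size factors, no filter, the 10-count filter and DESeq2 gave -0.003, -0.0046, -0.0003 and -0.0031 for Tgfb2 and -0.0015, -0.0016, -0.0022 and -0.0015 for Ltbp3, and the term for the sets -0.0152 and -0.291. Without 1 library the ranges at 2 weeks were -2.154 to 0.17 for Tgfb2, -1.26 to 1.414 for Bmp4 and -3.767 to 0.567 for Ltbp1. At 4 weeks they were -0.85 to 0.125 for Tgfb1, -0.258 to 0.206 for Tgfb2, -0.0873 to 1.136 for Tgfb3, -0.0569 to 0.657 for Bmp6, -0.412 to 0.169 for Ltbp1 and -0.449 to 0.287 for Ltbp3.

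Over all genes, edgeR called 0 at 2 weeks (276 at an unadjusted p under 0.05), DESeq2 149, voom 12 and the joint fit 33; at 4 weeks edgeR called 0 (422 unadjusted) and DESeq2 17. DESeq2 called 1004 genes in the mean KO effect and 929 in the difference of effects, against 13 and 14. At 2 weeks, of the 7 members tested, Ltbp4 alone had a 95% interval narrower than 1.5 log2 units.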
